A study of Mus musculus with 12 samples.

Results

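The genes described here are 36 germ cell and meiosis genes, measured by RNA sequencing in mouse embryonic stem cells. They were chosen by name from a list of 39 symbols and sorted by known function into 16 meiotic genes, 10 genes of the piRNA pathway, 4 genes of primordial germ cells and 6 other germ cell genes. They are 36 of the 20529 genes in the deposited table. Spo11, Tdrd6 and Asz1 were on the list of symbols and were not analysed here.

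Cells of the 129S6/SvEvTac background were grown on gelatin in medium with serum and LIF. Per the growth protocol, the FLAG-Cas9 construct was stably transfected with blasticidin selection, and every line also held the reporter GFP_5xT71BS. The 12 libraries of total RNA fell into 4 groups of 3 wells. The Cas9 control group overexpressed Cas9 and had the control genotype (Ctrl), and the Cas9 Trim71-/- group overexpressed Cas9 in cells labelled Trim71-/-. The Tnrc6a control and Tnrc6a Trim71-/- groups had the same genotype labels and overexpressed Tnrc6a. Trim71 is an RNA-binding protein of stem cells that represses mRNAs, and Tnrc6a (GW182) is the partner of Argonaute proteins in microRNA silencing. The series title asks whether separate silencing pathways meet on Tnrc6 proteins. The labels name neither separate derivations nor clones, so p-values measure the spread between wells, and the effect of a genotype or an overexpression cannot be told apart from that of the cell line that carries it. In bulk RNA, fewer cells that express a gene and less RNA per cell cannot be told apart.

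For 9 of the 12 libraries the title and the label for input material disagreed on the cells. That label gave HA-AVI-Tnrc6a cells in the Cas9 Trim71-/- group, HA-AVI-Tnrc6a cells that were also Ago2-/- in the Tnrc6a control group and HA-AVI-Tnrc6a cells that were also Upf1-/- in the Tnrc6a Trim71-/- group. Groups here follow the titles, whose overexpression part matches the overexpression label of every library. Tnrc6a RNA stood at 131.1 to 152.0 CPM (counts scaled to library size, with factors by the trimmed mean of M values) in the 6 Cas9 libraries and at 3197 to 3704 CPM in the 6 Tnrc6a libraries. Trim71 RNA did not identify the genotype, with group means of 306.1 ± 14.2 CPM (SD, n = 3) in the Cas9 control, 275.2 ± 14.2 in the Cas9 Trim71-/-, 264.2 ± 11.9 in the Tnrc6a control and 240.4 ± 9.13 in the Tnrc6a Trim71-/- group. Its log2 fold change by genotype was -0.15 with Cas9 (edgeR adjusted p = 0.00282) and -0.14 with Tnrc6a (edgeR adjusted p = 0.00758). The Cas9 groups overlapped, and with overexpression Trim71 was lower as well (-0.21 in control and -0.19 in Trim71-/- cells). The direction of each genotype effect therefore rests on the titles. Total counts per library ran from 20758151 to 31552915, and all 36 genes were among the 20486 tested.

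Meiosis is prepared by Stra8, which answers to retinoic acid, and by Meioc, which keeps meiotic transcripts stable. The synaptonemal complex, meiotic cohesin and the recombination proteins then pair and join the homologous chromosomes. The piRNA pathway protects the germ line from transposons by small RNAs bound to Piwi proteins and held together by tudor domain proteins. Primordial germ cells are specified by factors such as Prdm1 and kept alive by RNA-binding proteins such as Nanos3 and Dnd1. In embryonic stem cells many of these genes are known to be held low by DNA methylation and by a Polycomb complex that contains Mga, Max and E2f6 and binds E-box and E2F sites.

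Promoter stretches are shown first because these sites are known from textbooks as an entry point for that repression. Their part in the levels measured here was not tested. RefSeq windows on GRCm38.p6, from 250 bases before to 50 bases after each gene start (300 bases), were found for 32 of the 36 genes and not for Tex11, Tex15, Piwil2 and Dnd1. The E-box CACGTG, which reads the same on both strands, was in the windows of 12 of the 32 genes (37.5%), against 8.09% of all 27025 genes with a window and 11.3% of the 12326 tested genes with a window. Positions were read in the first listed window of each gene only. There, 11 of the 12 had at least 1 E-box before the start, with the nearest at 11 to 246 bases from it. The first listed window of Syce2 held no E-box, and the position in its other window was not determined. Stretches around the E-box (in capitals) follow for 5 genes whose levels are central here and for Hormad1, which passed the test in no comparison.
Sycp1 (chr3:102936159-102936224, minus strand): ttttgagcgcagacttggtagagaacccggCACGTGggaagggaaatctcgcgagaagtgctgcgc
Sycp3 (chr10:88459493-88459579, plus strand): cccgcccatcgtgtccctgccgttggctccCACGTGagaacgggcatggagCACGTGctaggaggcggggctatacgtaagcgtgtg
Mael (chr1:166238932-166238994, minus strand): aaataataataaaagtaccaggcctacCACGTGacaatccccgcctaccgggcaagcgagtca
Ddx4 (chr13:112652311-112652369, minus strand): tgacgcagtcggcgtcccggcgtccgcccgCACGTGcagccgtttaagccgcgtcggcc
Taf7l (chrX:134476504-134476569, minus strand): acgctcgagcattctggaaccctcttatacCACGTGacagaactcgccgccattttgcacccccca
Hormad1 (chr3:95559590-95559676, plus strand): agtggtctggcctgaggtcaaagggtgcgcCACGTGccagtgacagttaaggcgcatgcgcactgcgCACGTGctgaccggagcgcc

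The other genes with an E-box in the window were Slc25a31, Stag3, Syce2, Tdrd9, Mov10l1 and Tdrd1. Sycp3, Hormad1 and Tdrd9 each had 2 E-boxes before the start. TCCCGC, the core of an E2F site, was searched on both strands and shares no full copy with CACGTG. It was in 16 of the 32 windows (50.0%), against 22.0% of all genes and 38.3% of tested genes. Both motifs were in 8 windows (25.0%), against 2.65% and 4.93%. The median number of CG dinucleotides per window, the CG inside each E-box included, was 20.0 in the 32 genes, 8.0 in all genes and 21.0 in tested genes. A match is a run of letters and was not shown to be bound.

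The genes spanned a wide range of levels per length of transcript. In deposited RPKM (read counts scaled to gene length and library size), the means of the Cas9 control group ran from 0.109 for Tdrd9 to 55.5 for Tex19.1. Tex19.1, a germline and placental gene that is active in stem cells, was the highest gene in every group, with mean RPKM of 55.5 in the Cas9 control, 35.0 in the Cas9 Trim71-/-, 79.7 in the Tnrc6a control and 53.2 in the Tnrc6a Trim71-/- group. By the mean RPKM over the 4 groups it was followed by Sohlh2, Ddx4, Syce1, Syce2 and Mael. Prdm1, Piwil4 and Tdrd9 were the 3 lowest. The median RPKM of the 36 genes was 3.22 in the Cas9 control, 2.31 in the Cas9 Trim71-/-, 4.74 in the Tnrc6a control and 4.04 in the Tnrc6a Trim71-/- group, while the median of all genes ran from 3.84 to 3.96. A mean of at least 1 RPKM was reached by 27, 26, 32 and 30 of the 36 genes in the same order of groups. Levels of genes that stood next to each other in this order often overlapped within the SD of 3 libraries.

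**Figure D1:**
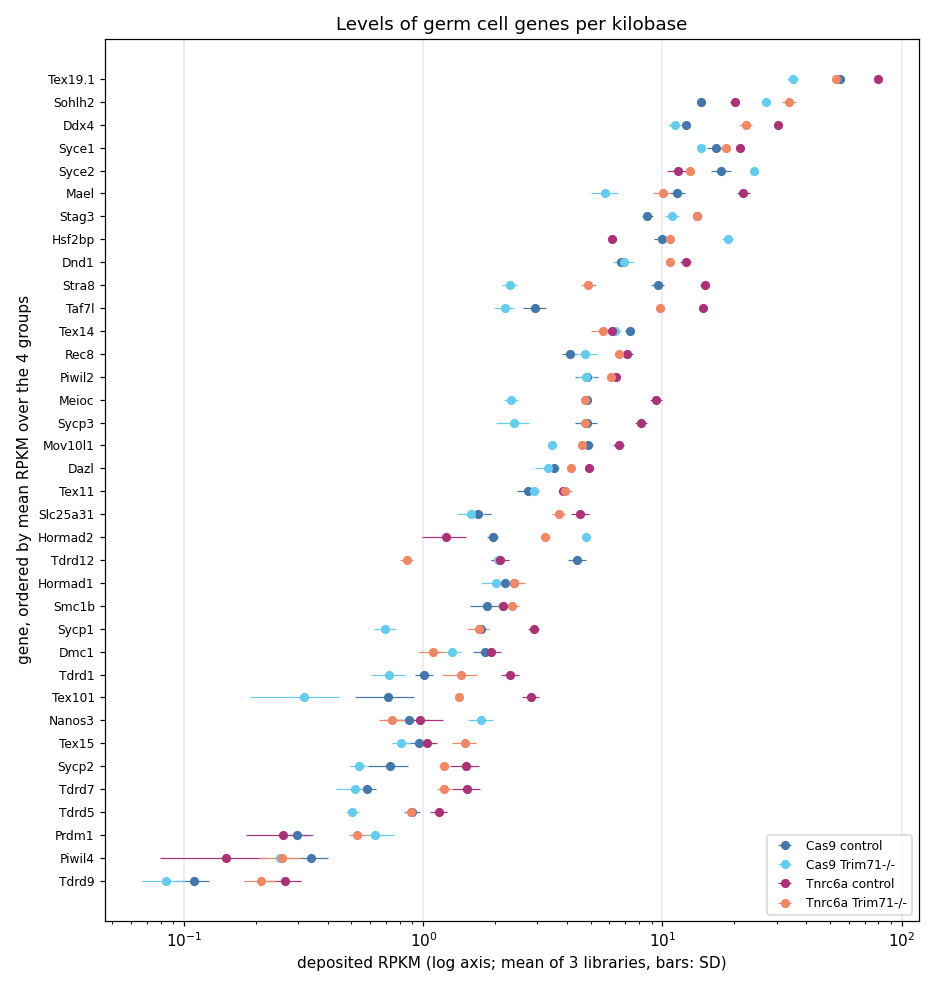
Mean deposited RPKM of each of the 36 genes (log axis) in the 4 groups, with bars for the SD of 3 libraries and genes ordered by their mean over the groups. Tex19.1 lies at the top, between 35.0 and 79.7 RPKM, and Tdrd9 at the bottom, and the Cas9 Trim71-/- points of Stra8, Mael and Sycp1 lie far to the left of the other 3 groups.

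With Cas9, 7 of the 36 genes were higher and 17 lower in the Trim71-/- than in the control group, and 12 did not pass the test (edgeR's quasi-likelihood test, adjusted p under 0.05). Over all genes tested, 36.14% passed, 17.06% higher and 19.08% lower. The median log2 fold change of the 36 genes was -0.21, against -0.01 over all genes. At least a 2-fold difference was called in 9 genes, 3 higher and 6 lower, against 5.26% of all genes (371 higher, 706 lower). By function, 4 of the 16 meiotic genes rose and 7 fell, 6 of the 10 piRNA genes fell and none rose, 2 of the 4 primordial germ cell genes rose and none fell, and 1 of the 6 other germ cell genes rose and 4 fell.

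With Tnrc6a, 7 of the 36 genes were higher and 19 lower in the Trim71-/- than in the control group, and 10 did not pass. Over all genes 39.08% passed, 20.03% higher and 19.04% lower. The median log2 fold change was -0.30 in the 36 genes and 0.00 over all genes. At least a 2-fold difference was called in 5 genes, 2 higher and 3 lower, against 5.65% of all genes (471 higher, 686 lower). By function, 4 meiotic genes rose and 7 fell, 1 piRNA gene rose and 6 fell, 1 primordial germ cell gene rose and 2 fell, and 1 other germ cell gene rose and 4 fell. The 2 genotype comparisons share no library, so their calls can be set side by side. Lower in both were 16 genes, which is 94.1% of the 17 and 84.2% of the 19, where the shares over all genes were 61.2% and 61.3%. Higher in both were Hormad2, Hsf2bp, Prdm1, Sohlh2 and Syce2, 71.4% of the 7 called in each, where the shares over all genes were 70.3% and 59.9%. No gene was called in opposite directions.

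Overexpression of Tnrc6a went with higher levels of most of the genes. In control cells 24 of the 36 were higher and 6 lower than with Cas9, and 6 did not pass, while over all genes 63.49% passed, 30.41% higher and 33.08% lower. Their median log2 fold change was 0.49, against -0.02 over all genes. At least a 2-fold difference was called in 10 genes (8 higher, 2 lower), against 14.21% of all genes (2254 higher, 657 lower). In Trim71-/- cells 25 were higher and 6 lower, and 5 did not pass, while over all genes 62.89% passed, 32.03% higher and 30.86% lower. The median was 0.46, against 0.02. At least a 2-fold difference was called in 12 genes (10 higher, 2 lower), against 14.42% of all genes (2366 higher, 588 lower). These 2 comparisons share no library either. All 24 genes that rose in control cells also rose in Trim71-/- cells, which is 96.0% of the 25 called there, where the shares over all genes were 83.7% and 79.5%. Lower in both were Hormad2, Hsf2bp, Syce2, Tdrd12 and Tex14, 83.3% of the 6 in each, where the shares over all genes were 80.5% and 86.3%.

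**Figure D2:**
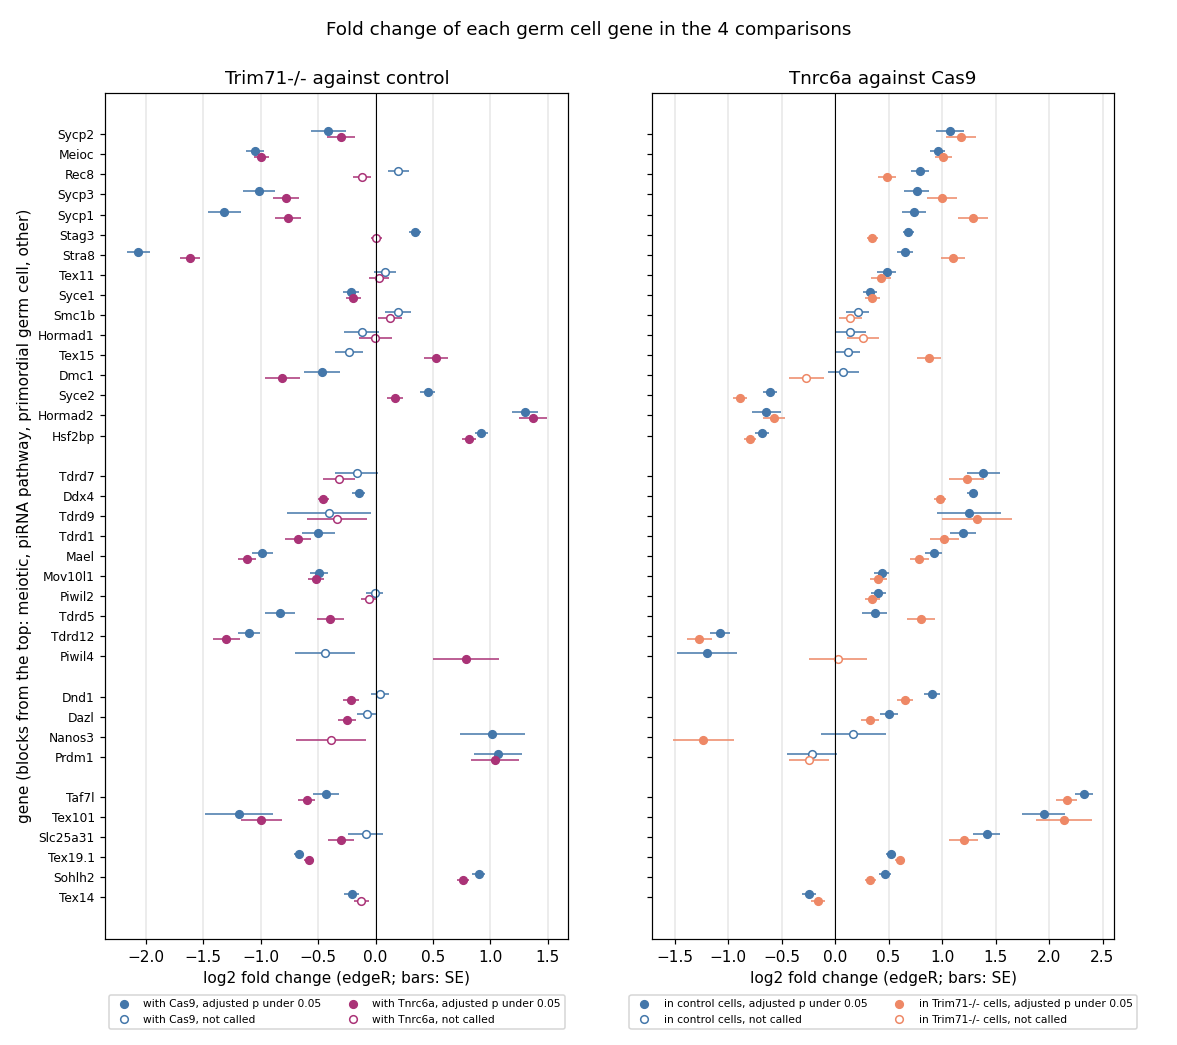
The log2 fold change of each of the 36 genes in the 4 comparisons, with bars for the standard error, filled points for an edgeR adjusted p under 0.05, and the functional classes in blocks. In the left panel 17 points with Cas9 and 19 with Tnrc6a are filled and left of 0, and in the right panel 24 and 25 are filled and right of 0.

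Markers of other states of these cultures moved in the same direction as many of the genes. The summed level of 13 markers of 2-cell-like cells, which are rare in such cultures, ran from 36.2 to 39.4 CPM in the Cas9 control, from 2.81 to 4.46 in the Cas9 Trim71-/-, from 793.3 to 827.8 in the Tnrc6a control and from 281.9 to 300.3 in the Tnrc6a Trim71-/- libraries. All 13 were called lower in both genotype comparisons and higher in both overexpression comparisons. The summed level of 8 primitive endoderm markers ran from 230.4 to 244.2, from 61.7 to 69.8, from 444.6 to 507.7 and from 75.0 to 93.8 CPM in the same order, with 8 of 8 lower in both genotype comparisons and 8 and 6 of 8 higher with Tnrc6a. The summed level of 8 pluripotency markers ran the other way, from 5439 to 5485, from 6548 to 6599, from 3215 to 3248 and from 4838 to 4930 CPM. Of these 8, 6 were higher and 1 lower by genotype with Cas9, 7 and 1 with Tnrc6a, and 8 and 6 were lower with overexpression in control and Trim71-/- cells. Utf1 was the marker that fell by genotype (-0.28 and -0.36), and Nanog and Klf4 were not called with overexpression in Trim71-/- cells. Zfp42, also among the 8, went by genotype from 644.4 to 1157 CPM with Cas9 and from 417.1 to 967.0 CPM with Tnrc6a. It lies on chromosome 8, where 664 genes of at least 5 CPM had a median log2 fold change by genotype of 0.49 with Cas9 and 0.52 with Tnrc6a. The part of that shift in the sum was not tested. The summed level of 3 fibroblast markers ran from 7.44 to 11.2, from 10.8 to 11.9, from 13.3 to 15.0 and from 16.3 to 17.4 CPM in the order above. By overexpression 2 of the 3 were higher in control and 3 in Trim71-/- cells, and by genotype 1 was higher and 1 lower with Cas9 and 2 were higher with Tnrc6a. No marker on these lists was at 0 in all libraries of a group. The part of these states in the levels of the germ cell genes was not tested.

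Of the meiotic genes, Stra8 (chr6:34920163-34939344) fell most in both genotype comparisons. It stood at 16.4, 16.7 and 18.5 CPM in the Cas9 control, 3.92, 4.01 and 4.47 in the Cas9 Trim71-/-, 28.0, 27.5 and 25.8 in the Tnrc6a control and 8.69, 9.54 and 8.28 in the Tnrc6a Trim71-/- libraries. The 4 groups did not overlap. With Cas9 it was 4.18-fold lower in Trim71-/- cells (log2 fold change -2.07, standard error 0.10, edgeR adjusted p = 8.37e-21), and with Tnrc6a 3.06-fold lower (-1.61, standard error 0.08, edgeR adjusted p = 3.37e-20). Tnrc6a went with a 1.57-fold higher level in control cells (0.65, standard error 0.08) and a 2.15-fold higher level in Trim71-/- cells (1.10, standard error 0.11).

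Meioc (chr11:102663716-102682237), needed to hold germ cells in meiotic prophase, stood at 23.1, 22.6 and 21.6 CPM in the Cas9 control and 11.6, 10.3 and 10.4 in the Cas9 Trim71-/- libraries. It stood at 41.1, 43.1 and 46.4 CPM in the Tnrc6a control and 22.7, 21.7 and 21.1 in the Tnrc6a Trim71-/- libraries. The Tnrc6a Trim71-/- libraries thus lay at the level of the Cas9 control libraries. The genotype difference was 2.07-fold with Cas9 (log2 fold change -1.05, standard error 0.08, edgeR adjusted p = 7.15e-15) and 1.99-fold with Tnrc6a (-0.99, standard error 0.07, edgeR adjusted p = 1.13e-16). With Tnrc6a it was 1.94-fold higher in control and 2.02-fold higher in Trim71-/- cells.

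Sycp1, Sycp2 and Sycp3 build the lateral and transverse elements of the synaptonemal complex. Sycp1 stood at 5.76, 6.43 and 6.34 CPM in the Cas9 control, 2.38, 2.77 and 2.26 in the Cas9 Trim71-/-, 9.71, 10.3 and 10.9 in the Tnrc6a control and 5.34, 6.63 and 6.23 in the Tnrc6a Trim71-/- libraries. Sycp3 stood at 5.42, 6.73 and 6.14, at 2.58, 3.52 and 2.95, at 10.4, 10.8 and 9.72 and at 6.06, 6.15 and 5.76 CPM in the same order. For both genes the Cas9 Trim71-/- libraries were the lowest, the Tnrc6a control libraries the highest, and the other groups overlapped each other. Sycp1 fell by 1.32 on the log2 scale with Cas9 (standard error 0.14, edgeR adjusted p = 2.55e-10) and by 0.76 with Tnrc6a (standard error 0.11, edgeR adjusted p = 3.1e-07). Sycp3 fell by 1.02 (standard error 0.14, edgeR adjusted p = 8.49e-08) and by 0.78 (standard error 0.11, edgeR adjusted p = 2.5e-07). With Tnrc6a, Sycp1 rose 1.67-fold in control and 2.45-fold in Trim71-/- cells, and Sycp3 1.70-fold and 2.00-fold. Exons of Chpt1 on the opposite strand cover 52.2% of the Sycp3 exon bases, and the mean level of Chpt1 was 12.7, 11.9, 20.6 and 15.7 CPM in the 4 groups. Whether counting used the strand is not given in the sources used here, so reads of these genes may not be told apart.

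Sycp2 stood at 3.50, 5.16 and 4.33 CPM in the Cas9 control and 3.32, 3.39 and 2.90 in the Cas9 Trim71-/- libraries. It stood at 7.97, 8.63 and 10.4 CPM in the Tnrc6a control and 7.72, 7.07 and 7.10 in the Tnrc6a Trim71-/- libraries. All 6 Tnrc6a libraries lay above all 6 Cas9 libraries, a 2.10-fold rise in control cells (log2 fold change 1.07, standard error 0.13, edgeR adjusted p = 2.16e-09) and a 2.27-fold rise in Trim71-/- cells (1.18, standard error 0.14, edgeR adjusted p = 1.15e-09). The fall by genotype was smaller, -0.41 with Cas9 (standard error 0.15, edgeR adjusted p = 0.0336) and -0.30 with Tnrc6a (standard error 0.12, edgeR adjusted p = 0.0414). The call with Cas9 was lost without Cas9 Trim71-/- replicate 1 or 3 or Cas9 control replicate 2 or 3 (edgeR adjusted p = 0.0556 to 0.209). The call with Tnrc6a was lost without Tnrc6a Trim71-/- replicate 2 or 3 or Tnrc6a control replicate 3, and without the last the value was -0.18 (edgeR adjusted p = 0.307).

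Hormad2 (chr11:4345814-4441105), a protein of the meiotic chromosome axis, moved against Sycp2 and Sycp3. It stood at 5.49, 5.47 and 5.02 CPM in the Cas9 control, 12.9, 13.0 and 13.5 in the Cas9 Trim71-/-, 3.06, 4.24 and 2.95 in the Tnrc6a control and 8.37, 8.84 and 9.26 in the Tnrc6a Trim71-/- libraries. The 4 groups did not overlap. It was 2.47-fold higher in Trim71-/- cells with Cas9 (log2 fold change 1.30, standard error 0.11, edgeR adjusted p = 7.83e-13) and 2.59-fold higher with Tnrc6a (1.37, standard error 0.12, edgeR adjusted p = 1.31e-12). With Tnrc6a it was 1.56-fold lower in control and 1.49-fold lower in Trim71-/- cells. Hsf2bp, a partner of Brca2 in meiotic recombination, and Syce2, a central element protein, had the same signs: log2 fold changes by genotype of 0.92 and 0.46 with Cas9 and 0.81 and 0.17 with Tnrc6a, and of -0.69 and -0.61 with Tnrc6a in control cells. The Syce2 call with Tnrc6a (edgeR adjusted p = 0.0495) was lost without Tnrc6a control replicate 1 or 3 or any of the Tnrc6a Trim71-/- replicates (edgeR adjusted p = 0.0848 to 0.254). Syce2 lies on chromosome 8, where 664 genes of at least 5 CPM had a median log2 fold change of 0.49 by genotype with Cas9 and 0.52 with Tnrc6a.

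The other 8 meiotic genes had genotype effects from -0.81 to 0.52 on the log2 scale. Stag3, a cohesin subunit, rose with Cas9 (0.34, standard error 0.05) and not with Tnrc6a (0.01, edgeR adjusted p = 0.921). Tex15, which silences transposons and lies on chromosome 8, rose with Tnrc6a only (0.52, standard error 0.10, against -0.23 with Cas9, edgeR adjusted p = 0.126). The call with Cas9 was gained without Cas9 control replicate 1 (-0.34, edgeR adjusted p = 0.0332). Dmc1, the meiotic recombinase, fell with Cas9 (-0.47, standard error 0.16) and with Tnrc6a (-0.81, standard error 0.15), and the call with Cas9 was lost without Cas9 Trim71-/- replicate 2 or Cas9 control replicate 3 (edgeR adjusted p = 0.0739 to 0.103). Syce1, another central element protein, fell by 0.21 and 0.19. These Syce1 calls were lost without Cas9 control replicate 1 or 3 (edgeR adjusted p = 0.0536 to 0.104) and without Tnrc6a Trim71-/- replicate 3 (0.0777). Rec8, a cohesin subunit, and Tex11, a crossover protein, were called in no genotype comparison and rose with Tnrc6a by 0.80 and 0.48 in control cells. Without Cas9 Trim71-/- replicate 1 Rec8 passed the test with Cas9 (edgeR adjusted p = 0.0104). Hormad1, whose promoter is printed above, and Smc1b, a cohesin subunit, were called in none of the 4 comparisons. Their largest values were 0.26 for Hormad1 (standard error 0.15, edgeR adjusted p = 0.126) and 0.21 for Smc1b (standard error 0.11, edgeR adjusted p = 0.0917), the latter called without Cas9 control replicate 3 (edgeR adjusted p = 0.0269).

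Of the piRNA genes, Mael (chr1:166201201-166238747), a protein of nuage granules, fell in both genotype comparisons. It stood at 20.0, 21.6 and 18.6 CPM in the Cas9 control, 11.0, 10.6 and 8.53 in the Cas9 Trim71-/-, 40.5, 36.5 and 36.4 in the Tnrc6a control and 16.4, 19.11 and 16.7 in the Tnrc6a Trim71-/- libraries. The Tnrc6a control libraries were the highest, the Cas9 Trim71-/- libraries the lowest, and the other 2 groups overlapped. The genotype difference was 1.98-fold with Cas9 (log2 fold change -0.99, standard error 0.09, edgeR adjusted p = 2.78e-12) and 2.17-fold with Tnrc6a (-1.12, standard error 0.08, edgeR adjusted p = 4.39e-16). With Tnrc6a it was 1.89-fold higher in control and 1.72-fold higher in Trim71-/- cells.

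Tdrd12 (chr7:35469098-35537745), a tudor domain protein of secondary piRNA production, was the gene that fell in all 4 comparisons beyond 2-fold. It stood at 20.6, 17.3 and 19.6 CPM in the Cas9 control, 9.26, 8.85 and 8.62 in the Cas9 Trim71-/-, 8.28, 9.17 and 9.85 in the Tnrc6a control and 3.75, 3.90 and 3.43 in the Tnrc6a Trim71-/- libraries. The Cas9 control libraries were the highest and the Tnrc6a Trim71-/- libraries the lowest, with the other 2 groups at 1 level. The log2 fold changes by genotype were -1.10 with Cas9 (standard error 0.10, edgeR adjusted p = 4.95e-13) and -1.30 with Tnrc6a (standard error 0.11, edgeR adjusted p = 8.8e-13). With Tnrc6a they were -1.08 in control cells (standard error 0.09) and -1.27 in Trim71-/- cells (standard error 0.12).

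Ddx4 (chr13:112598333-112652475), the Vasa helicase that marks committed germ cells, stood at 37.4, 37.9 and 38.0 CPM in the Cas9 control and 35.3, 35.2 and 31.5 in the Cas9 Trim71-/- libraries. It stood at 91.0, 91.4 and 93.7 CPM in the Tnrc6a control and 65.8, 71.6 and 64.1 in the Tnrc6a Trim71-/- libraries. All 6 Tnrc6a libraries lay above all 6 Cas9 libraries, with a 2.44-fold rise in control cells (log2 fold change 1.29, standard error 0.05, edgeR adjusted p = 1.46e-24) and a 1.97-fold rise in Trim71-/- cells (0.98, standard error 0.05, edgeR adjusted p = 5.46e-20). By genotype it fell 1.37-fold with Tnrc6a (-0.45, standard error 0.05, edgeR adjusted p = 1.94e-10). With Cas9 the fall was 1.11-fold (-0.15, standard error 0.06, edgeR adjusted p = 0.0355). That call was lost without any of the 3 Cas9 control replicates or Cas9 Trim71-/- replicate 3 (edgeR adjusted p = 0.0604 to 0.191).

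Tdrd1, Tdrd7 and Tdrd9 code for tudor domain proteins of germ granules, and all 6 Tnrc6a libraries lay above all 6 Cas9 libraries for each of them. Tdrd1 stood at 5.38, 6.02 and 5.10 CPM in the Cas9 control, 3.22, 4.05 and 4.47 in the Cas9 Trim71-/-, 11.3, 13.1 and 13.3 in the Tnrc6a control and 7.25, 9.32 and 6.94 in the Tnrc6a Trim71-/- libraries. Tdrd7 stood at 2.07, 2.43 and 2.43, at 2.15, 2.32 and 1.66, at 5.29, 6.90 and 5.90 and at 4.73, 5.19 and 4.57 CPM in the same order. Tdrd9 stood at 0.691, 0.506 and 0.580, at 0.436, 0.372 and 0.553, at 1.60, 1.55 and 1.16 and at 1.15, 0.957 and 1.30 CPM, from 9 to 46 counts a library. With Tnrc6a, Tdrd1 rose 2.29-fold in control and 2.03-fold in Trim71-/- cells, Tdrd7 2.61-fold and 2.35-fold, and Tdrd9 2.38-fold and 2.51-fold (edgeR adjusted p between 2.46e-10 and 0.000464 for Tdrd7 and Tdrd9). By genotype Tdrd1 fell, by 0.50 with Cas9 (standard error 0.14, edgeR adjusted p = 0.00505) and by 0.68 with Tnrc6a (standard error 0.11, edgeR adjusted p = 3.43e-06), and the former call was lost without Cas9 Trim71-/- replicate 1 (edgeR adjusted p = 0.0713). Tdrd7 and Tdrd9 passed in neither genotype comparison, with log2 values from -0.41 to -0.16, although Tdrd7 passed with Tnrc6a without Tnrc6a control replicate 1 or Tnrc6a Trim71-/- replicate 2 (edgeR adjusted p = 0.0249 and 0.0468).

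Piwil4 (chr9:14696230-14740733), the nuclear Piwi protein that directs transposon methylation, was near the lowest level of all, with 12 to 55 counts a library. It stood at 2.11, 1.47 and 1.89 CPM in the Cas9 control, 1.41, 1.41 and 1.25 in the Cas9 Trim71-/-, 0.870, 1.15 and 0.398 in the Tnrc6a control and 1.15, 1.69 and 1.30 in the Tnrc6a Trim71-/- libraries. The Tnrc6a control libraries were the lowest and had the widest relative spread. Tnrc6a went with a 2.30-fold lower level in control cells (log2 fold change -1.20, standard error 0.28, edgeR adjusted p = 0.000247) and with no called difference in Trim71-/- cells (0.03, standard error 0.27, edgeR adjusted p = 0.938). By genotype it rose with Tnrc6a (0.79, standard error 0.29, edgeR adjusted p = 0.0256). Without Tnrc6a control replicate 3, the library at 0.398 CPM, this value was 0.45 (edgeR adjusted p = 0.239), and without Tnrc6a Trim71-/- replicate 2 the call was lost as well (0.17). Tdrd5 and Mov10l1, a tudor domain protein and an RNA helicase of primary piRNA production, fell in both genotype comparisons (-0.83 and -0.49 with Cas9, -0.39 and -0.52 with Tnrc6a) and rose with Tnrc6a in both genotypes. Piwil2, a cytoplasmic Piwi protein, was called in no genotype comparison (-0.01 and -0.06) and rose with Tnrc6a by 0.40 and 0.35.

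Of the primordial germ cell genes, Prdm1 (chr10:44437177-44528501), the transcription factor Blimp1, was higher in both Trim71-/- groups. It stood at 1.65, 1.37 and 1.93 CPM in the Cas9 control, 3.52, 4.18 and 2.77 in the Cas9 Trim71-/-, 1.57, 1.80 and 0.962 in the Tnrc6a control and 2.85, 3.20 and 2.80 in the Tnrc6a Trim71-/- libraries. All 6 Trim71-/- libraries lay above all 6 control libraries. The rise was 2.10-fold with Cas9 (log2 fold change 1.07, standard error 0.21, edgeR adjusted p = 5.21e-05) and 2.06-fold with Tnrc6a (1.04, standard error 0.21, edgeR adjusted p = 7.59e-05). No difference by overexpression was called (-0.22 and -0.25, edgeR adjusted p = 0.425 and 0.252). Prdm1 is also expressed outside the germ line.

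Nanos3 (chr8:84173731-84185217), an RNA-binding protein that keeps primordial germ cells alive, stood at 0.615, 0.961 and 0.850 CPM in the Cas9 control and 1.78, 1.41 and 1.66 in the Cas9 Trim71-/- libraries. It stood at 0.661, 0.935 and 1.10 CPM in the Tnrc6a control and 0.721, 0.589 and 0.749 in the Tnrc6a Trim71-/- libraries, with 16 to 53 counts a library in all. The Cas9 Trim71-/- libraries stood above the other 9, which overlapped. It rose by genotype with Cas9 (log2 fold change 1.02, standard error 0.28, edgeR adjusted p = 0.00391) and was not called with Tnrc6a (-0.39, standard error 0.30, edgeR adjusted p = 0.336). It was lower with Tnrc6a in Trim71-/- cells (-1.23, standard error 0.28, edgeR adjusted p = 0.000225). Like Syce2 and Tex15 it lies on chromosome 8, whose median moved by genotype as given above, and the part of that shift was not tested.

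Dazl and Dnd1 are RNA-binding proteins of germ cells, and both were higher in all 6 Tnrc6a libraries than in the 6 Cas9 libraries. Dazl (chr17:50279395-50293636) stood at 13.4, 14.0 and 12.8 CPM in the Cas9 control, 13.3, 13.7 and 11.0 in the Cas9 Trim71-/-, 19.2, 19.3 and 18.3 in the Tnrc6a control and 16.5, 16.0 and 15.3 in the Tnrc6a Trim71-/- libraries. Dnd1 stood at 16.2, 17.0 and 15.2, at 14.8, 17.1 and 18.0, at 30.9, 28.3 and 31.3 and at 26.8, 25.3 and 26.0 CPM in the same order. With Tnrc6a, Dazl rose 1.41-fold in control and 1.25-fold in Trim71-/- cells (edgeR adjusted p = 1.29e-06 and 0.000932), and Dnd1 1.87-fold and 1.57-fold (3.87e-14 and 5.03e-10). Neither was called by genotype with Cas9. With Tnrc6a, Dazl fell by 0.25 (standard error 0.08, edgeR adjusted p = 0.0109), a call lost without Tnrc6a Trim71-/- replicate 3 (0.0548), and Dnd1 fell by 0.21 (standard error 0.07, edgeR adjusted p = 0.0134), a call lost without Tnrc6a control replicate 3 (0.0646).

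Of the other germ cell genes, Taf7l (chrX:134460118-134476490), a germ cell variant of a subunit of the general transcription factor TFIID, had the largest rise with Tnrc6a. It stood at 6.11, 6.27 and 7.46 CPM in the Cas9 control, 4.83, 4.51 and 5.44 in the Cas9 Trim71-/-, 33.0, 34.7 and 32.2 in the Tnrc6a control and 21.0, 22.1 and 22.9 in the Tnrc6a Trim71-/- libraries. The 4 groups did not overlap, and the step by overexpression was larger than that by genotype. It rose 5.02-fold with Tnrc6a in control cells (log2 fold change 2.33, standard error 0.09, edgeR adjusted p = 8.25e-26) and 4.48-fold in Trim71-/- cells (2.16, standard error 0.09, edgeR adjusted p = 2.58e-23). By genotype it fell by 0.43 with Cas9 (standard error 0.11, edgeR adjusted p = 0.00195) and by 0.60 with Tnrc6a (standard error 0.07, edgeR adjusted p = 4.16e-09).

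Tex101 (chr7:24668007-24676675), a surface protein of germ cells, was at 1.42, 0.810 and 1.31 CPM in the Cas9 control, 0.503, 0.744 and 0.323 in the Cas9 Trim71-/-, 4.73, 5.03 and 4.28 in the Tnrc6a control and 2.42, 2.25 and 2.37 in the Tnrc6a Trim71-/- libraries. The 4 groups did not overlap, with 7 to 140 counts a library. It rose 3.87-fold with Tnrc6a in control cells (log2 fold change 1.95, standard error 0.20, edgeR adjusted p = 2.72e-11) and 4.41-fold in Trim71-/- cells (2.14, standard error 0.26, edgeR adjusted p = 1.47e-09). By genotype it fell 2.27-fold with Cas9 (-1.18, standard error 0.29, edgeR adjusted p = 0.00123) and 1.99-fold with Tnrc6a (-0.996, standard error 0.18, edgeR adjusted p = 1.27e-05).

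Slc25a31, the ADP and ATP carrier of germ cell mitochondria, stood at 3.23, 3.44 and 4.14 CPM in the Cas9 control, 3.76, 2.90 and 3.50 in the Cas9 Trim71-/-, 9.95, 10.3 and 8.69 in the Tnrc6a control and 7.79, 7.36 and 8.32 in the Tnrc6a Trim71-/- libraries. The Cas9 groups overlapped, and all Tnrc6a libraries lay above them. It rose 2.67-fold in control cells (log2 fold change 1.42, standard error 0.13, edgeR adjusted p = 6.14e-13) and 2.30-fold in Trim71-/- cells (1.20, standard error 0.13, edgeR adjusted p = 1.51e-10). By genotype it was not called with Cas9 (-0.09) and fell with Tnrc6a (-0.30, standard error 0.11, edgeR adjusted p = 0.0295). That call was lost without Tnrc6a control replicate 1 or 2 or Tnrc6a Trim71-/- replicate 1 or 2 (edgeR adjusted p = 0.0647 to 0.0946).

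Sohlh2, a transcription factor of early spermatogonia and oocytes, was the gene that rose in all 4 comparisons (log2 fold changes of 0.90 and 0.76 by genotype and 0.46 and 0.33 with Tnrc6a). Tex19.1 fell by genotype (-0.67 and -0.58) and rose with Tnrc6a (0.52 and 0.61). Tex14, a protein of intercellular bridges between germ cells, fell with Tnrc6a in control cells (-0.24, standard error 0.07) and by genotype with Cas9 (-0.21, standard error 0.07), a call lost without Cas9 Trim71-/- replicate 1 or Cas9 control replicate 3 (edgeR adjusted p = 0.0816 to 0.0962). By genotype with Tnrc6a it was not called (-0.12, edgeR adjusted p = 0.15), except without Tnrc6a Trim71-/- replicate 2 (-0.24, edgeR adjusted p = 0.00709). With Tnrc6a in Trim71-/- cells Tex14 fell by 0.16 (standard error 0.07, edgeR adjusted p = 0.0404). That value was -0.26 without Tnrc6a Trim71-/- replicate 2 and -0.10 without replicate 3, and the call was lost without Cas9 Trim71-/- replicate 2 or 3 or Tnrc6a Trim71-/- replicate 1 or 3 (edgeR adjusted p = 0.0906 to 0.237).

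**Figure D3:**
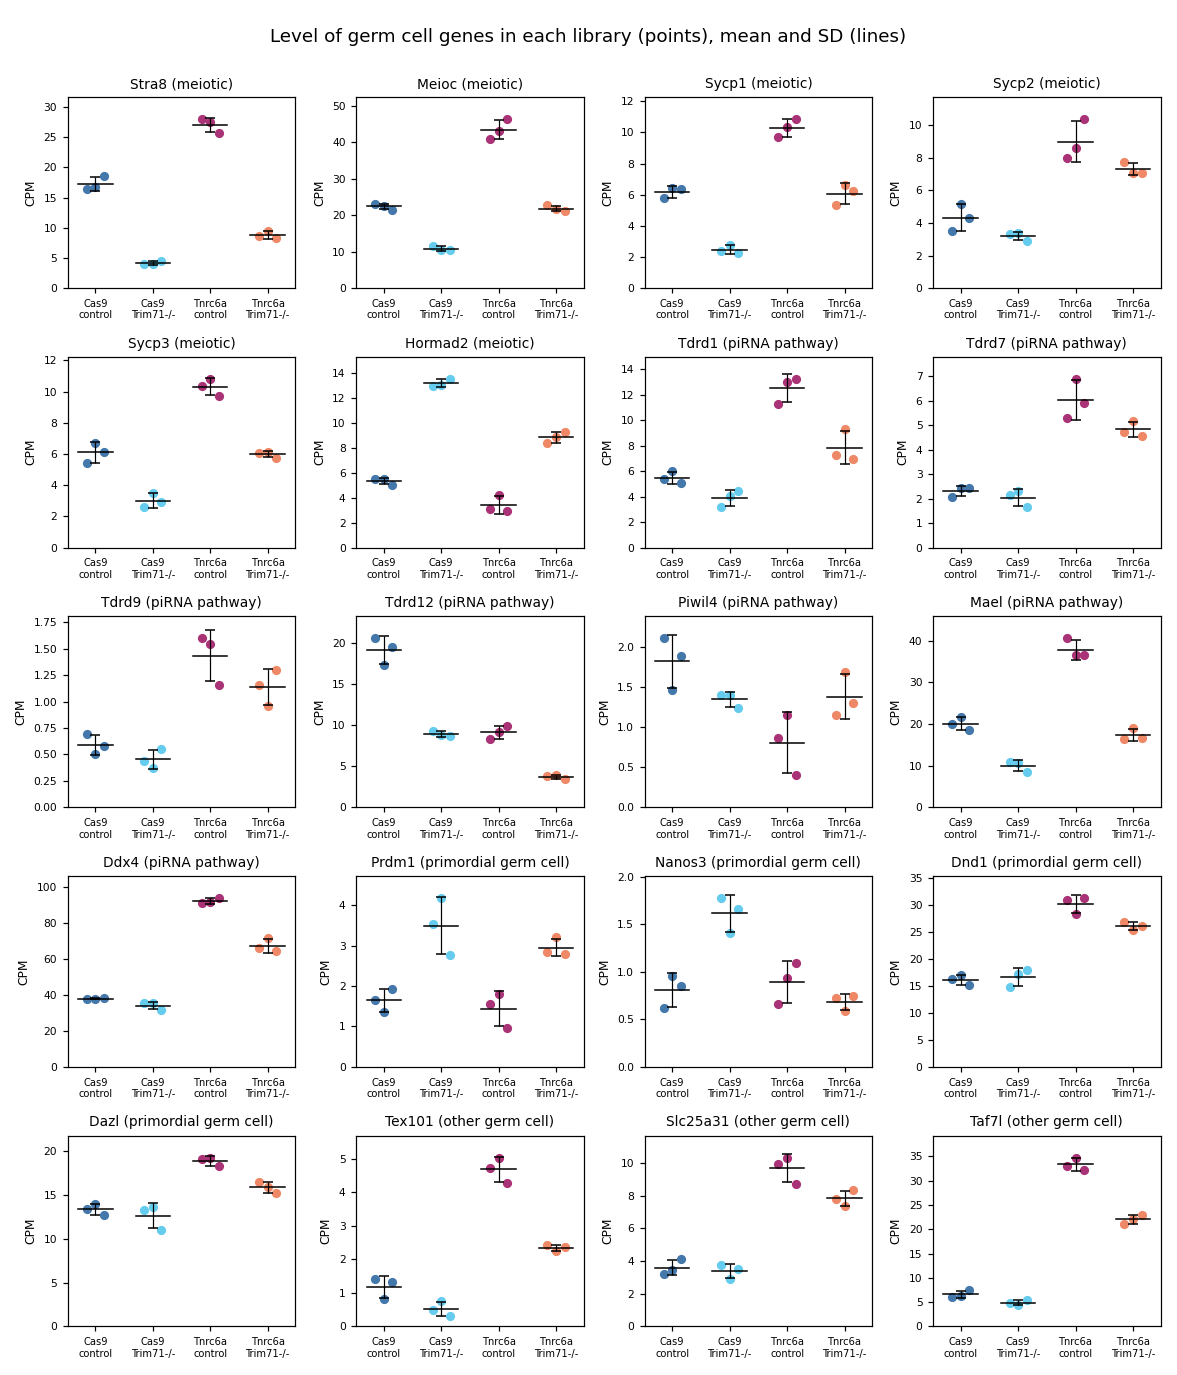
CPM of 20 of the genes in each of the 12 libraries (points), with the mean and SD of each group (lines) and axes that start at 0. The Tnrc6a control libraries of Stra8, Meioc, Sycp1, Mael, Ddx4 and Taf7l are the highest of the 4 groups, while Hormad2 and Prdm1 have their highest means in the Cas9 Trim71-/- group.

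The interaction, which asks whether the genotype effect differed between Tnrc6a and Cas9, passed the test in 6 of the 36 genes, 3 with a higher and 3 with a lower effect under Tnrc6a. Over all genes 6.93% passed, 4.68% higher and 2.25% lower. Of these 6, 3 held in each setting in which 1 library was left out: Stag3 (difference of log2 fold changes -0.34, standard error 0.07, edgeR adjusted p = 0.00154), Tex15 (0.75, standard error 0.16, edgeR adjusted p = 0.00119) and Ddx4 (-0.31, standard error 0.07, edgeR adjusted p = 0.006). Stag3 rose by genotype with Cas9 alone, Tex15 rose with Tnrc6a alone, and the fall of Ddx4 was larger with Tnrc6a. Stra8 fell less with Tnrc6a (0.45, standard error 0.14, edgeR adjusted p = 0.032), Piwil4 had the higher value with Tnrc6a (1.23, standard error 0.39, edgeR adjusted p = 0.045) and Nanos3 the higher value with Cas9 (-1.40, standard error 0.42, edgeR adjusted p = 0.0299). The Stra8 call was lost in 8 of the 12 settings without 1 library, all but those without replicate 3 of either Trim71-/- group or Cas9 control replicate 1 or 2 (edgeR adjusted p = 0.0505 to 0.156). The Piwil4 call was lost in 9, all but those without Cas9 control replicate 2, Tnrc6a control replicate 2 or Tnrc6a Trim71-/- replicate 1 (edgeR adjusted p = 0.059 to 0.173). The Nanos3 call was lost in 5, without replicate 1 of either Cas9 group, Tnrc6a control replicate 2 or 3 or Tnrc6a Trim71-/- replicate 2 (edgeR adjusted p = 0.0564 to 0.103). Sycp1 (0.55, edgeR adjusted p = 0.0569), Syce2 (-0.28, edgeR adjusted p = 0.0639) and Rec8 (-0.31, edgeR adjusted p = 0.12) were not called over all libraries. They passed in 2, 4 and 1 of these settings: Sycp1 without Cas9 Trim71-/- replicate 2 or Tnrc6a Trim71-/- replicate 1, Syce2 without replicate 1 of either Cas9 group or Tnrc6a control replicate 1 or 3, and Rec8 without Cas9 Trim71-/- replicate 1, with edgeR adjusted p from 0.0163 to 0.0495.

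**Figure D4:**
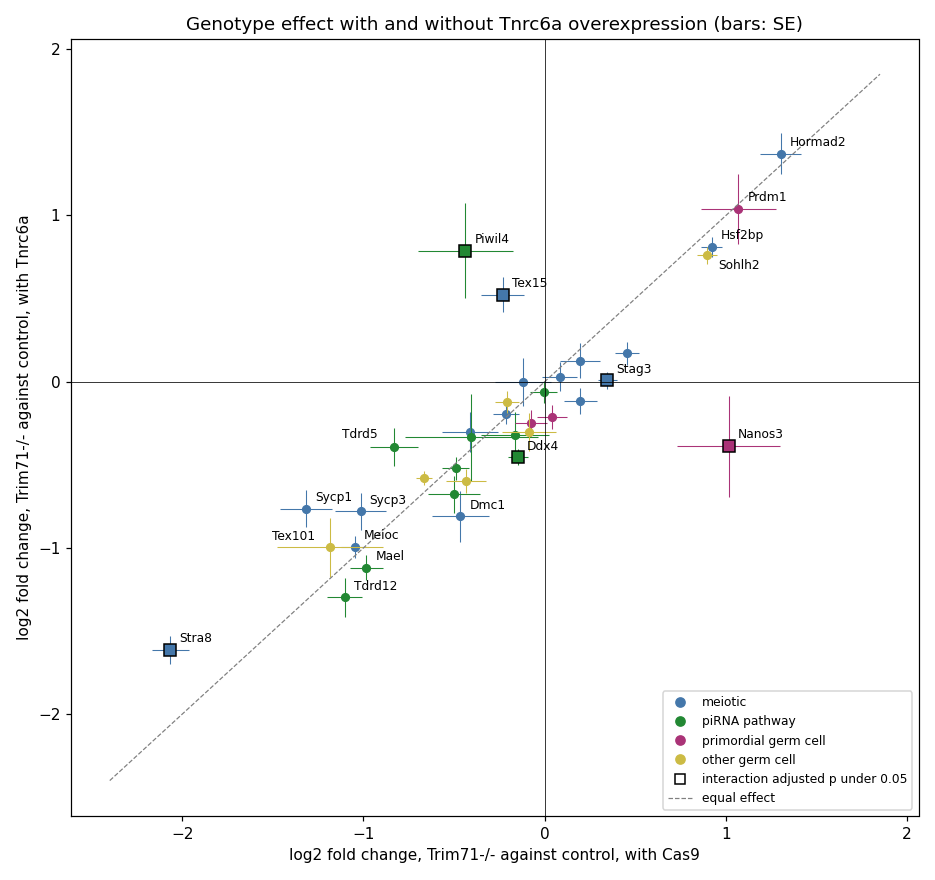
The log2 fold change of Trim71-/- against control with Cas9 (x axis) and with Tnrc6a (y axis) for the 36 genes, with bars for the standard error, a dashed line of equal effect and squares for an interaction with an edgeR adjusted p under 0.05. Most genes lie near the line, from Stra8 at the lower left to Hormad2 at the upper right, and Nanos3, Piwil4 and Tex15 lie farthest from it.

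Genes with an E-box in the promoter window and those without moved in the same direction in their medians. Of the 12 with an E-box, 10 rose and 1 fell with Tnrc6a in control cells (median log2 fold change 0.84), and 11 of the 20 without rose and 5 fell (0.35), while 30.41% of all genes rose and 33.08% fell. In Trim71-/- cells the counts were 10 and 1 (median 0.99) against 11 and 5 (0.33), beside 32.03% and 30.86% of all genes. By genotype with Cas9, 2 rose and 7 fell of the 12 (median -0.42), against 5 and 10 of the 20 (-0.21), beside 17.06% and 19.08% of all genes. With Tnrc6a, 1 rose and 8 fell (-0.49), against 5 and 10 (-0.28), beside 20.03% and 19.04% of all genes. The difference between genes with and without an E-box was not tested. Both sets held exceptions. Syce2, with an E-box, was called against the median in all 4 comparisons (0.46 and 0.17 by genotype, -0.61 and -0.89 with Tnrc6a), and Stag3 rose by genotype with Cas9. Syce2 lies on chromosome 8, whose genes of at least 5 CPM had a median by genotype of 0.49 with Cas9 and 0.52 with Tnrc6a. Its call at 0.17 was lost in 5 settings without 1 library. Hormad1, with 2 E-boxes, was called in no comparison. Among genes without an E-box in the window, Hormad2, Hsf2bp, Prdm1 and Sohlh2 rose in both genotype comparisons. Hormad2, Hsf2bp, Tdrd12 and Tex14, also without one, fell in both overexpression comparisons.

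Other genes of the same pathways moved in both directions. Of 27 other meiotic genes, 6 rose and 3 fell by genotype with Cas9, and 4 rose and 5 fell with Tnrc6a. Terb1 and Brme1 rose in both genotype comparisons and lie on chromosome 8, whose median moved by genotype as given above. Over all genes, 17.06% rose and 19.08% fell with Cas9, and 20.03% rose and 19.04% fell with Tnrc6a. With overexpression 12 of the 27 rose and 8 fell in control cells, beside 30.41% and 33.08% of all genes. In Trim71-/- cells 8 rose and 7 fell, beside 32.03% and 30.86% of all genes. Mei1, a double-strand break factor, fell by 1.90 with Cas9 (standard error 0.56, edgeR adjusted p = 0.00754) and by 1.09 with Tnrc6a (standard error 0.41, edgeR adjusted p = 0.0356), and rose by 1.50 with overexpression in Trim71-/- cells. In the first and the last of these comparisons the groups overlapped, and Mei1 had as few as 2 counts in a library. Rec114, also a double-strand break factor, rose by 1.12 with Cas9 (standard error 0.21, edgeR adjusted p = 4.24e-05) and by 0.95 with Tnrc6a (standard error 0.21, edgeR adjusted p = 0.000369). Rad21l, a meiotic cohesin subunit, fell by 1.63 by genotype with Tnrc6a and rose by 1.75 with overexpression in control cells, at 3 to 25 counts a library. Tex12, a central element protein, rose with overexpression by 1.71 in control and 1.30 in Trim71-/- cells. Mean levels of Mei1, Rad21l and Tex12 were at most 1.48 CPM in any group.

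Of 11 other piRNA genes, 3 fell and none rose by genotype with Cas9, and 1 rose and 1 fell with Tnrc6a. With overexpression 3 rose and 3 fell in control and 4 rose and 2 fell in Trim71-/- cells. In the same order of comparisons, 17.06%, 20.03%, 30.41% and 32.03% of all genes rose and 19.08%, 19.04%, 33.08% and 30.86% fell. Fkbp6, a chaperone of piRNA loading, fell by 1.69 (standard error 0.36, edgeR adjusted p = 0.000176) and 0.82 (standard error 0.25, edgeR adjusted p = 0.00776) by genotype. With overexpression it rose by 0.90 in control and 1.77 in Trim71-/- cells. Morc1, a transposon repressor, fell with overexpression in control cells from 93.6 ± 3.52 to 34.5 ± 2.96 CPM (SD, n = 3, edgeR adjusted p = 1.89e-25). On the log2 scale Morc1 fell by 1.14 with overexpression in Trim71-/- cells and rose by 0.28 by genotype with Tnrc6a. Henmt1, the piRNA methyltransferase, rose with overexpression by 1.10 in control and 1.39 in Trim71-/- cells. Spocd1, a partner of Piwil4, had 3 counts in all in the Cas9 Trim71-/- group, 22 in the Cas9 control and 24 in the Tnrc6a Trim71-/- group. Scaled to total counts, the ratios to the first of these were 7.84 (95% interval 2.36 to 40.9) and 8.37 (95% interval 2.54 to 43.4), where the exact intervals cover counting error only. They leave out the spread between wells. The Cas9 control libraries, at 0.077, 0.405 and 0.464 CPM, overlapped the Cas9 Trim71-/- libraries, at 0.0, 0.041 and 0.092 CPM.

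Of 5 other primordial germ cell genes, 1 rose and 3 fell by genotype with Cas9, and 1 rose and 2 fell with Tnrc6a. With overexpression 2 rose and 3 fell in control and 1 rose and 2 fell in Trim71-/- cells. In the same order of comparisons, 17.06%, 20.03%, 30.41% and 32.03% of all genes rose and 19.08%, 19.04%, 33.08% and 30.86% fell. Prdm14, a regulator of primordial germ cells and of naive pluripotency, rose by genotype (0.32 with Cas9, 0.66 with Tnrc6a). With overexpression it fell by 0.94 in control and 0.60 in Trim71-/- cells. Tfap2c fell by genotype, by 0.38 with Cas9 and 0.42 with Tnrc6a, and rose with overexpression by 0.58 in control and 0.55 in Trim71-/- cells. Dppa3 (Stella) fell by 1.40 by genotype with Tnrc6a and rose by 1.92 with overexpression in control cells, at means of at most 1.22 CPM. Ifitm3 (Fragilis) fell with overexpression by 1.64 in control and 1.32 in Trim71-/- cells.

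Of 13 repressors of germline genes, none rose and 6 fell by genotype with Cas9, and 1 rose and 6 fell with Tnrc6a. Over all genes, 17.06% rose and 19.08% fell with Cas9, and 20.03% rose and 19.04% fell with Tnrc6a. With overexpression 1 of the 13 rose and 7 fell in control cells, beside 30.41% and 33.08% of all genes. In Trim71-/- cells 1 rose and 8 fell, beside 32.03% and 30.86% of all genes. Dnmt3a, a DNA methyltransferase, went from 206.1 ± 1.80 to 94.1 ± 8.83 CPM by genotype with Cas9 (SD, n = 3, log2 fold change -1.13, standard error 0.05, edgeR adjusted p = 8.5e-24). With Tnrc6a it went from 116.3 ± 1.94 to 79.6 ± 0.800 CPM (-0.55, standard error 0.05, edgeR adjusted p = 2.15e-13). With overexpression it fell on the log2 scale by 0.82 in control and 0.24 in Trim71-/- cells. Dnmt3b, its paralog, fell by genotype by 0.28 with Cas9 and 0.72 with Tnrc6a, and by 0.39 with overexpression in Trim71-/- cells. Max, a partner of Mga, fell by 0.31 by genotype with Cas9. With overexpression Max fell by 0.36 in control and 0.16 in Trim71-/- cells. Uhrf1, which brings Dnmt1 to replicated DNA, fell with overexpression by 0.68 in control and 0.70 in Trim71-/- cells. E2f6, a repressor of germline genes that binds E2F sites, rose with overexpression in control cells (0.45, standard error 0.05, edgeR adjusted p = 7.96e-10). It also rose in Trim71-/- cells (0.56, standard error 0.05, edgeR adjusted p = 3.71e-12). Their part in the levels of the germ cell genes was not tested.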

How the data were processed

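RNA of 12 libraries was sequenced with a stranded total RNA kit, per the labels' protocols. The submitters' processing notes name bcl2fastq 2.20, STAR 2.7.3a and the builds GRCm38 and mm10. How reads were counted (tool, annotation and strand) is not given in the sources used here. Raw counts per gene were deposited by the authors and were the values tested. The authors also deposited RPKM values, used here only to compare levels between genes. The table lists 20529 genes, the lowest with 46 counts over all libraries, and gives symbols for 17158. Gene coordinates and exon overlaps are from GENCODE M21 (GRCm38) and promoter windows from RefSeq (GRCm38.p6). Six6os1 was matched through an older symbol.

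Counts were filtered by group (filterByExpr), scaled by the trimmed mean of M values and fitted in R 4.3.3 with edgeR 4.0.16 (quasi-likelihood, 1 mean per group, all 12 libraries). The two-sided tests of 20486 genes were corrected by Benjamini-Hochberg, at a threshold of 0.05. The steps were tested on simulated data. Alternatives used other scaling factors, filters, DESeq2 1.42.0, limma 3.58.1 (voom), a replicate block, the compared groups only, no chromosome 8 genes, and each library left out. Replicates differed by more than sampling noise.

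The genes and lists were chosen with earlier results of these data known, so they give no independent support. Values of every library are printed for genes of at least 1 CPM in a group with a call of at least 2-fold in a pairwise comparison, and for Stra8, Sycp3, Ddx4, Dazl, Mael, Prdm1, Nanos3 and Dnd1. Of other pathway genes, up to 2 called genes per list and comparison with the largest change are named. Terb1 and Brme1 are named for their place on chromosome 8. Of 5 fibroblast markers, 3 were in the table.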

Additional observations from a re-analysis of the deposited data

Results flagged for a closer look

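For 6 genes the interaction test itself called a difference in the genotype effect between Tnrc6a and Cas9 overexpression (edgeR, adjusted over 20486 genes). The difference of log2 fold changes was 0.45 for Stra8 (SE 0.14, adjusted p = 0.032), 0.75 for Tex15 (SE 0.16, adjusted p = 0.00119) and 1.23 for Piwil4 (SE 0.39, adjusted p = 0.045). It was -0.34 for Stag3 (SE 0.07, adjusted p = 0.00154), -0.31 for Ddx4 (SE 0.07, adjusted p = 0.006) and -1.40 for Nanos3 (SE 0.42, adjusted p = 0.0299). Without 1 library, the calls of Stra8, Piwil4 and Nanos3 were lost in 8, 9 and 5 of 12 settings (edgeR adjusted p = 0.0505 to 0.173 where lost), and DESeq2 called neither Stra8 nor Piwil4. Those of Stag3, Tex15 and Ddx4 held in all 12. Piwil4 and Nanos3 rest on 12 to 55 and 16 to 53 counts a library.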

How the results depend on the processing

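No gene of the 36 changed direction while called, in any setting run. Without 1 library, the counts called were 7 to 8 higher and 12 to 16 lower by genotype with Cas9, 5 to 7 and 16 to 19 with Tnrc6a, 24 to 25 and 6 with overexpression in control cells, and 25 and 5 to 6 in Trim71-/- cells. Interaction calls were the least stable: 1 to 3 genes higher without 1 library and 1 under DESeq2, against 3, and 543 to 949 of all genes higher without 1 library, against 958. The lowest values came without Tnrc6a control replicate 2 (543) or 1 (548) and Tnrc6a Trim71-/- replicate 2 (584). Other settings ended the interaction calls of Stra8 (DESeq2 and voom, adjusted p = 0.0571 at most) and Piwil4 (relative log expression factors and DESeq2, 0.0729 at most), and genotype calls near the threshold: Sycp2 and Ddx4 with Cas9, and Sycp2, Syce2 and Piwil4 with Tnrc6a. Tex14 with overexpression in Trim71-/- cells was lost in 5 of them. Calls were gained for Smc1b with overexpression in control cells (2 settings, adjusted p = 0.0441 and 0.0448), Tdrd7 by genotype with Tnrc6a (2 settings, 0.0349 and 0.0405) and the Syce2 interaction (3 settings, 0.0399 to 0.0489).

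Replicate numbers did not pair the libraries: deviations of 18 same-numbered pairs correlated at -0.23 to 0.15. A replicate block ended 2 calls, Sycp2 (edgeR adjusted p = 0.0504) and Syce2 (0.0592), both by genotype with Tnrc6a, and no other call of the 36 genes. Depth limits Tdrd9, Piwil4, Nanos3 and Tex101, with as few as 7 counts in a library.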
